A study of Mus musculus with 16 samples.

Results

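Expression of 33 genes of adipocytes and lipid storage was followed in the bladders of C57BL/6 mice at 12 months (MAT) and at 27 to 30 months (AGED). The genes came from a list of symbols, matched through the accession given for each array probe, and a gene was tested if 4 or more of the 16 arrays read its probe well above background. All 33 genes of the list passed this filter, out of 26781 genes tested on the arrays. Of these, 24 were well above background on all 16 arrays, and 9 on fewer (Adipoq, Lep, Plin1, Cidec, Pnpla3, Aqp7, Gpd1, Pck1 and Ucp1). Total RNA of the dissected bladder body was hybridized to 1-colour Agilent arrays, with the bladder of 1 mouse on each array. Each age was represented by 4 males and 4 females, all of the C57BL/6 strain, and the labels give no treatment and no introduced allele. The question was how age changed gene expression in each sex. The females lay on 1 slide and the males on the other, so sex and slide cannot be told apart, and row 1 of either slide held MAT and row 2 AGED bladders, so age and row cannot be told apart.

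White adipocytes store triglyceride in a lipid droplet that is coated by perilipins and enlarged by proteins of the CIDE family, and they secrete hormones such as adiponectin and leptin. Fatty acids are released from circulating lipoproteins by lipoprotein lipase or made from acetyl-CoA, are joined to glycerol phosphate for storage, and are set free again by lipolysis. The bladder carries fat along its outer surface, while many of these enzymes and binding proteins are also made by other cells of the wall, such as urothelium and endothelium. In RNA of whole tissue, fewer cells of a type and less RNA per cell cannot be told apart.

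Values are the log2 processed signal of a gene's probe minus the 75th percentile of its array, and differences are on this log2 scale, where 1 is a 2-fold change. Levels are compared between arrays for the same gene, since signals of different probes are not on a common scale. Between 52.3% and 68.2% of the probes of an array were well above background with the lowest share on AGED male replicate 1, and precision is limited by how many arrays there were. The tissue label was checked with markers. The mean log2 signal of 6 smooth muscle genes was between 6.65 and 7.27 on every array, and that of 6 urothelial genes between 5.84 and 6.42. Ddx3y, a gene of the Y chromosome, was well above background on 8 male arrays and 0 female arrays. All directions follow the age given in the labels. By these, Chil3, a chitinase-like protein of macrophages, was higher in AGED mice by 5.68 in males (limma, Benjamini-Hochberg adjusted p = 5.77e-06) and by 2.53 in females (adjusted p = 0.0219). The study's table of top genes prints the opposite direction for it in both sexes. Whether the labels or that table are right was not tested, and every age direction given here rests on the labels.

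No member of the list was called for a change with age in either sex, where a call needed a 2-fold change and an adjusted p under 0.05 by limma. Among all genes tested, 0.851% passed in males and 0.190% in females. Lep passed the filter on dim probes through the MAT females alone, which fixes its direction, so the counts and medians that follow are over the other 32. In females, 28 of the 32 genes had a log2 change below 0, against 50.9% of all genes, and their median change was -0.35, against -0.01 for all genes. In males, 21 of 32 were below 0, against 49.8% of all genes, with a median of -0.13 against 0.00. The male median was -0.23 without MAT male replicate 2 and -0.22 without AGED male replicate 4, and it was -0.085 when AGED male replicate 3 was left out and -0.040 when MAT male replicate 4 was, where 18 were below 0. The lowest adjusted p among the 32 was 0.253 in females, for Scd1, and 0.444 in males, for Dgat2. At an unadjusted p under 0.05, 8 members were lower in AGED females (Cidea, Pnpla3, Aqp7, Thrsp, Scd1, Gpd1, Lpl and Car3) and 0 were higher. That is 8 of 32 where 5.85% of all genes were lower by the same rule. In males, 0 members passed the unadjusted p in either direction, while 16.2% of all genes did. Leaving out 1 array gave 1 with MAT male replicate 2 out (Cidec) and 1 with AGED male replicate 3 out (Elovl6). It gave 2 with MAT female replicate 1 out (Thrsp and Ucp1), and all of these were lower in AGED males. The share of all genes is not given for these fits. The plot of age changes shows the wide intervals for Adipoq, Retn, Cfd, Plin1, Cidec, Gpd1, Pck1 and Ucp1 and narrow ones for genes such as Pparg and Me1.

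**Figure D1:**
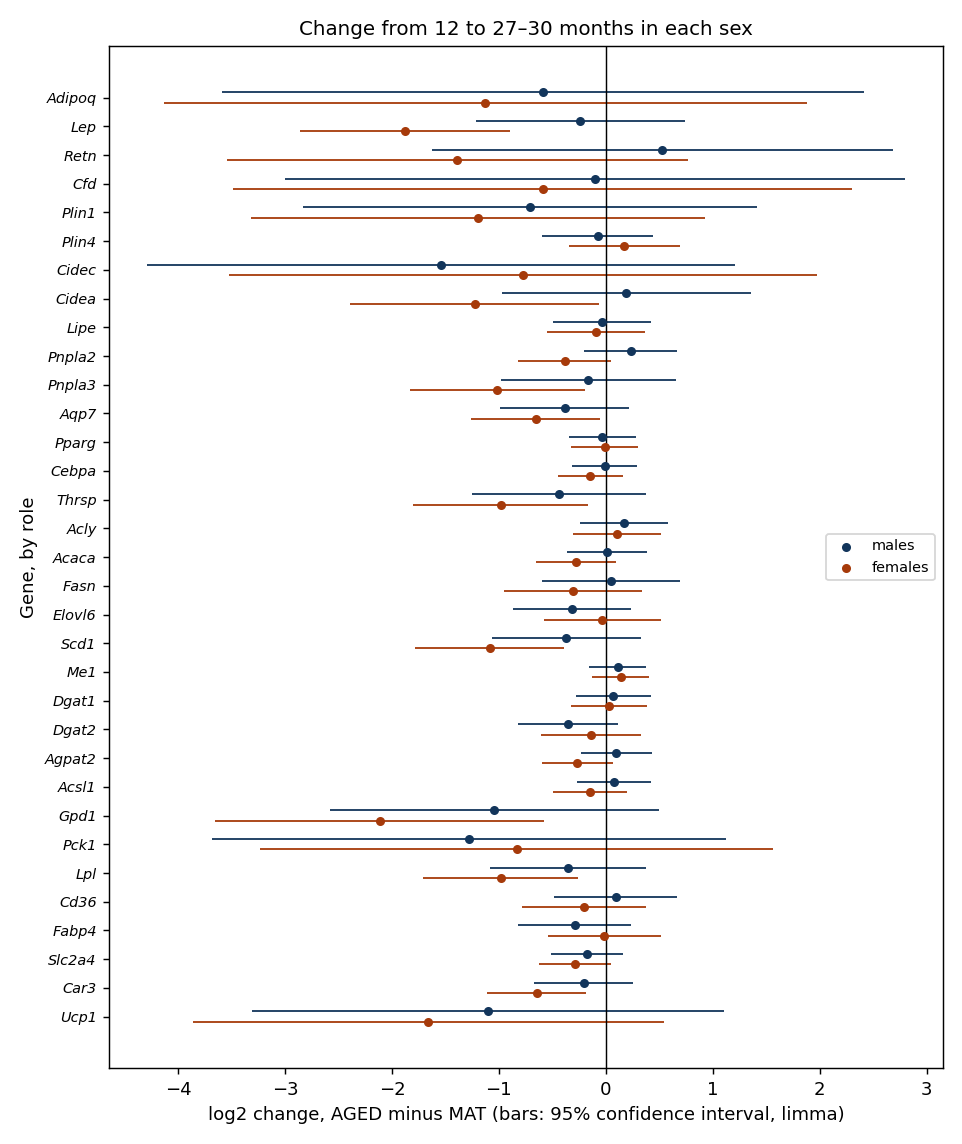
Log2 change from 12 to 27–30 months of each of the 33 genes, ordered by role, in males (dark blue) and females (brown); points are limma estimates from 4 against 4 arrays and bars their 95% confidence intervals. Most points lie below 0, 21 of 32 in males and 28 of 32 in females beside Lep, and the intervals of Adipoq, Cfd and Cidec span several log2 units. The points of Lep are fitted values from groups not well above background (MAT females apart) and carry no size.

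Of the 4 hormone genes, Adipoq, Retn and Cfd had lower means in AGED than in MAT females, and none of these passed the adjusted test. Lep is described below without a test. Adipoq encodes adiponectin, a hormone that raises insulin sensitivity. Its log2 signal was 3.92, 1.77, 2.55 and 1.79 on the MAT female arrays (replicates 1 to 4) and 0.55, 1.36, 1.47 and 2.15 on the AGED female arrays. In males it was -0.94, -6.01, -0.51 and 0.89 on the MAT arrays and -2.53, -0.62, -6.28 and 0.50 on the AGED arrays. Both male groups thus held 1 array far below the others, MAT male replicate 2 and AGED male replicate 3, and on these arrays Adipoq was not well above background. The age change of Adipoq was -1.12 in females (SE 1.41, adjusted p = 0.851; -0.65 without MAT female replicate 1) and -0.59 in males (SE 1.41, adjusted p = 0.864). Leaving out MAT male replicate 2 gave a male value of -2.04, while leaving out AGED male replicate 3 gave 0.76 and MAT male replicate 4 gave 0.26, so that single arrays turned its direction.

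Lep encodes leptin, the hormone by which fat signals its stores to the brain. It was well above background on the 4 MAT female arrays, where its log2 signal was -3.94, -4.54, -4.09 and -5.34, and on none of the other 12 arrays. On the AGED female arrays it was -7.29, -6.70, -5.80 and -5.64, all below the lowest MAT female array. Lep was at least 2.05-fold lower in AGED than in MAT females. It entered the tested genes only through the MAT female arrays, so this difference is given as a description with no test. No male array was well above background for it at either age, and no fold is given there.

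Retn, which encodes resistin, and Cfd, which encodes the complement protease adipsin, varied in the same arrays as Adipoq. The log2 signal of Retn was 4.09, 1.85, 1.88 and 1.68 in MAT females and 0.57, 0.95, 0.50 and 1.93 in AGED females. MAT female replicate 1 lay above the rest, and the groups overlapped through AGED female replicate 4. In males Retn ranged from -4.61 to -0.70 in the MAT group and from -4.32 to 0.89 in the AGED group, again with MAT replicate 2 and AGED replicate 3 lowest. Cfd ranged from 4.52 to 6.59 in MAT females, from 3.96 to 5.65 in AGED females, from -2.27 to 3.97 in MAT males and from -2.59 to 4.10 in AGED males. The age changes were -1.39 for Retn and -0.59 for Cfd in females, with SEs of 1.01 and 1.36, and they were -0.82 and -0.17 without MAT female replicate 1. In males they were 0.53 and -0.10. For Retn the male value turned to -0.31 when AGED male replicate 4 was left out and to -0.30 when MAT male replicate 2 was. That of Cfd was above 0 without any 1 of 5 arrays (MAT male replicates 1, 3 and 4 and AGED male replicates 1 and 3), and lay between -1.38 and 1.24.

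**Figure D2:**
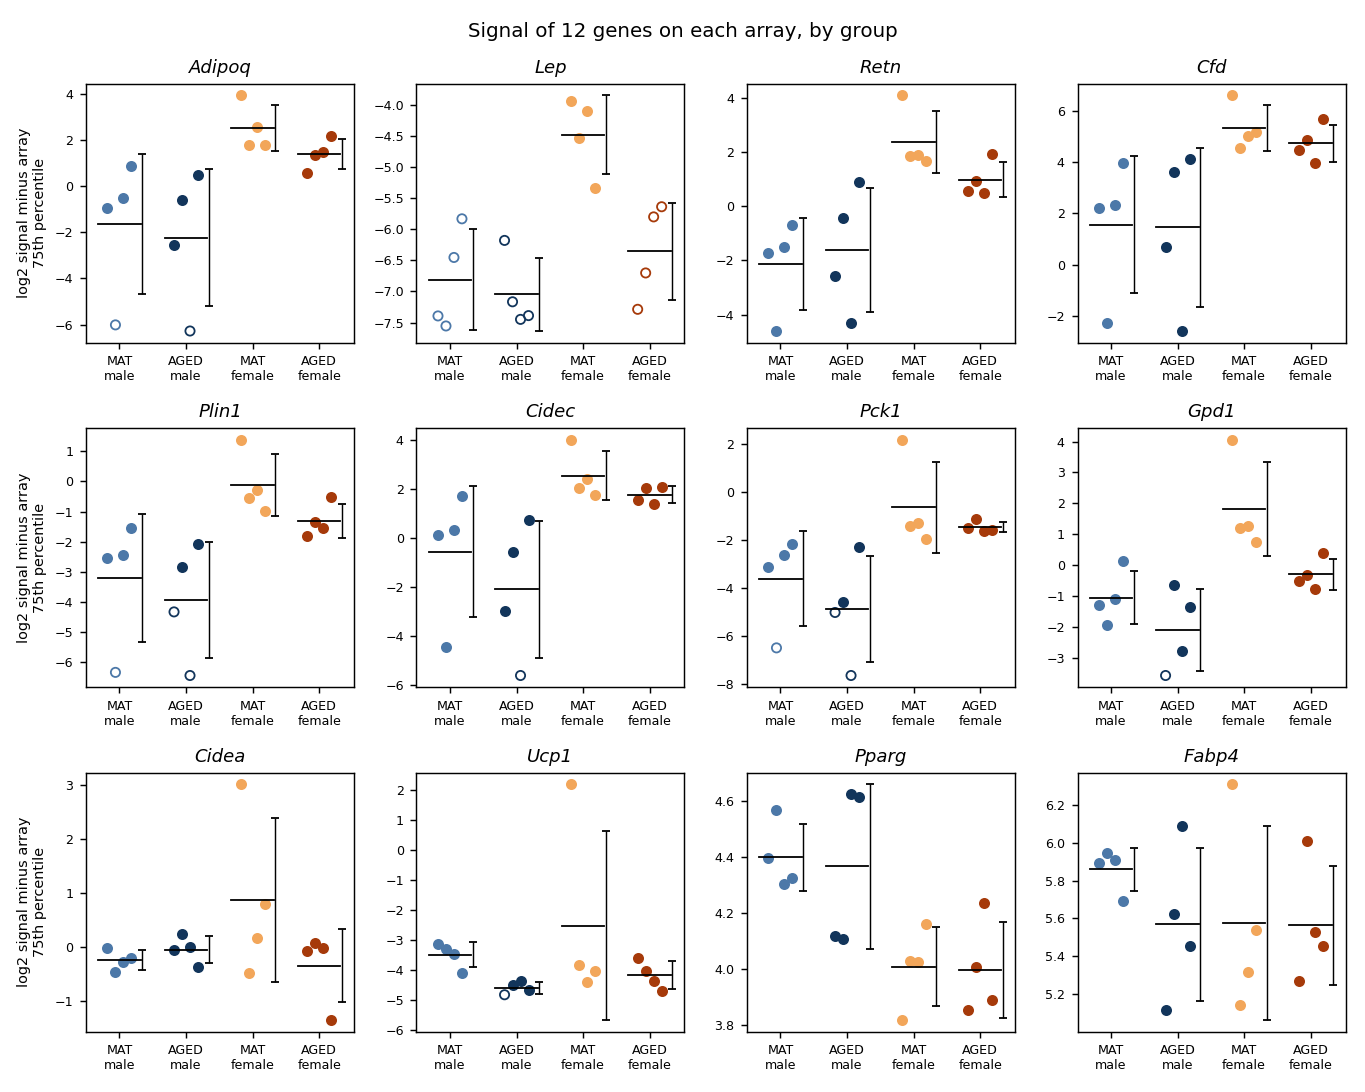
Log2 signal minus the array's 75th percentile for 12 genes on each of the 16 arrays; each panel has its own vertical scale, the horizontal line is the group mean, the bar its SD (n = 4), and open points are arrays not well above background. In males 1 MAT and 1 AGED array are the lowest of their groups for Adipoq, Cfd, Plin1, Cidec and Pck1, and in MAT females 1 array lies far above the others for Ucp1, Cidea, Gpd1 and Pck1, while Pparg spans less than 1 log2 unit over all arrays.

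Of the 4 lipid droplet genes, Plin1, Cidec and Cidea were lower in AGED females by their means and Plin4 was not. Plin1 encodes the perilipin that coats the droplet of fat cells. Its log2 signal was 1.38, -0.56, -0.28 and -0.99 in MAT females and -1.83, -1.34, -1.56 and -0.51 in AGED females. In males it was -2.54, -6.35, -2.46 and -1.53 at 12 months and -4.34, -2.84, -6.45 and -2.08 at 27 to 30 months. Plin1 was well above background on 3 MAT and 2 AGED male arrays. The age change of Plin1 was -1.19 in females (SE 1.00), or -0.70 without MAT female replicate 1. It was -0.71 in males, and lay between -1.75 without MAT male replicate 2 and 0.13 without AGED male replicate 3.

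Cidec, which enlarges the droplet of white fat cells, was between 1.75 and 4.01 in MAT females and between 1.41 and 2.10 in AGED females, a change of -0.77, or -0.29 without MAT female replicate 1. Its male values were 0.15, -4.44, 0.35 and 1.72 at 12 months and -2.96, -0.56, -5.61 and 0.75 at 27 to 30 months. Cidec was well above background on 4 MAT and 3 AGED male arrays. The male change was -1.54 (SE 1.29, adjusted p = 0.575), and it lay between -2.84 without MAT male replicate 2 and -0.37 without AGED male replicate 3. Cidea, a CIDE protein of brown fat and other lipid-rich cells, was 3.01, -0.49, 0.17 and 0.80 in MAT females and -0.09, 0.06, -0.02 and -1.36 in AGED females. The change was -1.22 (SE 0.55, unadjusted p = 0.0407 by limma) and it was -0.51 without MAT female replicate 1. Plin4, another perilipin, differed by 0.17 in females and -0.07 in males, with 95% confidence intervals from -0.35 to 0.69 and from -0.59 to 0.45.

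Among the lipolysis genes, Pnpla3 and Aqp7 were lower in AGED females at the unadjusted threshold. Aqp7, the channel by which glycerol leaves fat cells, had a log2 signal of -3.29, -2.56, -3.52 and -3.52 in MAT females and -4.05, -3.81, -3.60 and -4.04 in AGED females, so that the groups did not overlap (change -0.65, SE 0.28, adjusted p = 0.433). Pnpla3, a lipase-related protein of the droplet, ranged from -4.44 to -2.48 in MAT and from -5.25 to -4.12 in AGED females (change -1.01, SE 0.38). It was -0.59 without MAT female replicate 1. Pnpla2 encodes the lipase that starts triglyceride breakdown, and Lipe encodes hormone-sensitive lipase. Both had age changes between -0.38 and 0.23 in the 2 sexes, and neither passed the unadjusted p. The difference between the male and the female age change of Pnpla2 was 0.62 (SE 0.29, unadjusted p = 0.0497, adjusted p = 0.506 by limma).

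The regulators Pparg and Cebpa, transcription factors that drive fat cell differentiation, differed little between the ages. Pparg was between 3.82 and 4.16 in MAT females, between 3.85 and 4.24 in AGED females, between 4.30 and 4.57 in MAT males and between 4.11 and 4.63 in AGED males. Its age change was -0.01 in females (95% confidence interval -0.33 to 0.30) and -0.03 in males (-0.35 to 0.28). Thrsp, a nuclear protein that follows lipid synthesis, was 2.75, 0.90, 0.39 and 0.69 in MAT females and 0.57, 0.27, -0.46 and 0.41 in AGED females (change -0.98, SE 0.38, adjusted p = 0.392). The change was -0.46 without MAT female replicate 1. In males it was 0.21, 0.34, 0.20 and 0.36 at 12 months and -0.04, -0.43, -0.10 and -0.07 at 27 to 30 months. The male groups of Thrsp did not overlap (change -0.44, exact permutation p = 0.0286), while limma, with 1 spread for all 4 groups, gave an adjusted p of 0.595.

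Of the 6 lipid-making enzymes, Scd1 had non-overlapping female groups and the other 5 had age changes between -0.32 and 0.17 in both sexes by their tested probes. Scd1, the desaturase that makes oleic acid, was 4.90, 3.40, 2.88 and 3.16 in MAT females and 2.66, 2.59, 2.49 and 2.25 in AGED females. The change was -1.09 (SE 0.33, adjusted p = 0.253; exact permutation p = 0.0286) and was -0.65 without MAT female replicate 1. In males Scd1 ranged from 2.54 to 2.89 at 12 months and from 1.88 to 2.57 at 27 to 30 months. Acly, Acaca, Fasn, Elovl6 and Me1 carry acetyl-CoA to long-chain fatty acids or supply the reducing power for it. Acaca and Me1 had probes that disagreed. The tested probe of Acaca differed between the ages by 0.01 in males while another of its 3 probes differed by 0.48 (exact permutation p = 0.0286), and that of Me1 by 0.11 while another of its 3 differed by -0.28 (exact permutation p = 0.0286). The direction of Acaca and Me1 thus depended on the probe. The other probe of Acly differed by 0.34 in males and 0.37 in females, more than its tested probe.

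Among the 6 genes of esterification and glycerol supply, Gpd1 and Pck1 had the most negative age changes, and those of Dgat1, Dgat2, Agpat2 and Acsl1 were between -0.35 and 0.10 by their tested probes. The other probe of Acsl1 differed by 0.34 in males and -0.39 in females. Gpd1 makes glycerol phosphate, the backbone of triglyceride. Its log2 signal was 4.05, 1.20, 1.27 and 0.74 in MAT females and -0.50, -0.31, -0.77 and 0.38 in AGED females, and the groups did not overlap. The change was -2.11 (SE 0.72, adjusted p = 0.322; exact permutation p = 0.0286), the most negative of the 33 in females, and it was -1.37 without MAT female replicate 1. In males Gpd1 was -1.29, -1.93, -1.11 and 0.14 at 12 months and -3.57, -0.65, -2.79 and -1.35 at 27 to 30 months, a change of -1.04 (SE 0.72), or -0.55 without AGED male replicate 1. Gpd1 was well above background on 4 MAT and 3 AGED male arrays.

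Pck1 encodes the enzyme that supplies glycerol phosphate from pyruvate in fat cells. It was 2.18, -1.42, -1.31 and -1.96 in MAT females and between -1.63 and -1.14 in AGED females. The female change was -0.83, and it was 0.10 without MAT female replicate 1. In males it was -3.13, -6.49, -2.61 and -2.17 at 12 months and -5.02, -4.59, -7.64 and -2.27 at 27 to 30 months, a change of -1.28 (SE 1.12, adjusted p = 0.597). This value ran from -2.24 without MAT male replicate 2 to -0.36 without AGED male replicate 3. MAT male replicate 2 and AGED male replicate 3 were again the lowest arrays of their groups. Pck1 was well above background on 3 MAT and 2 AGED male arrays.

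Of the uptake genes, Lpl was lower in AGED females in every array. Lpl encodes lipoprotein lipase. Its log2 signal was 4.15, 2.72, 3.04 and 2.55 in MAT females and 1.93, 2.30, 2.02 and 2.26 in AGED females (change -0.98, SE 0.34, adjusted p = 0.332; exact permutation p = 0.0286), and the change was -0.64 without MAT female replicate 1. The other probe of Lpl differed by -1.09 in females (exact permutation p = 0.0286). In males the difference of Lpl was -0.36, and it was -0.02 without AGED male replicate 3. Cd36, a fatty acid transporter, Fabp4, the fatty acid binding protein of fat cells and endothelium, and Slc2a4, the insulin-responsive glucose transporter, had age changes between -0.29 and 0.09 in both sexes. The 95% confidence interval of Fabp4 ran from -0.54 to 0.52 in females and from -0.82 to 0.24 in males.

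Car3, the carbonic anhydrase of fat and muscle, was 6.67, 6.15, 6.20 and 6.08 in MAT females and 5.28, 5.69, 6.09 and 5.45 in AGED females (change -0.65, SE 0.22, adjusted p = 0.305). The groups overlapped by 1 array. Ucp1, the uncoupling protein of brown fat, was 2.20 on MAT female replicate 1 and between -4.39 and -3.83 on the other MAT female arrays, and it was -3.60, -4.04, -4.37 and -4.70 in AGED females. The female change was -1.66 (SE 1.03), and -0.085 without MAT female replicate 1. In males Ucp1 was -3.12, -3.31, -3.47 and -4.09 at 12 months and -4.83, -4.52, -4.38 and -4.66 at 27 to 30 months, and these groups did not overlap (change -1.10, exact permutation p = 0.0286). Limma's SE for this change was 1.03 and its adjusted p 0.622. Ucp1 was well above background on 4 MAT and 3 AGED male arrays. Without MAT female replicate 1, which enters the shared spread, the male change of -1.10 had an adjusted p of 0.0471.

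Counted over the 32 members other than Lep, the AGED group lay wholly below the MAT group for 4 in females (Aqp7, Scd1, Gpd1 and Lpl), where 5.78% of all genes did so, and for 2 in males (Thrsp and Ucp1), where 3.91% did. No member lay wholly above in either sex, against 5.04% and 3.91% of all genes. The pattern in females rested in part on MAT female replicate 1. Without it, 23 members were below 0 in place of 28, the median change was -0.16 in place of -0.35, 5 passed the unadjusted p in place of 8 (Thrsp, Scd1, Gpd1, Lpl and Car3), and 1 was at least 2-fold lower in place of 8. With all arrays, 1.15% of all genes were at least 2-fold lower and 5.85% were lower at the unadjusted p. The shares of all genes without MAT female replicate 1 are not given, and leaving it out also changes the shared spread. The count of 4 members without overlap in females was 9 without AGED female replicate 4 and 7 without MAT female replicate 3 or AGED female replicate 1. With 1 array fewer, groups fail to overlap more readily, and the share of all genes is not given for these counts. The difference of the age changes between the sexes passed at an adjusted p under 0.05 for 0 members and for 0.149% of all genes. At an unadjusted p under 0.05, 1 of the 32 members (Pnpla2) and 9.87% of all genes passed.

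Other genes of the pathway were counted in the same way, from lists of genes outside the 33. In neither sex was any of them called. Of 17 further fat cell genes, 11 had a change below 0 in males and 11 in females, with medians of -0.10 and -0.21. Plin2, a perilipin of many cell types, differed by -0.40 in males and 0.35 in females, with adjusted p of 0.248 and 0.491. Of 13 further lipid storage genes, 10 were below 0 in males (median -0.18) and 3 in females (median 0.24). The 10 further lipid synthesis genes had medians of 0.08 and 0.12, and the 7 fat precursor genes -0.27 and -0.14. Of 11 genes of fatty acid oxidation, 8 were above 0 in males and 5 in females. The medians of all genes were 0.00 and -0.01.

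Markers of other cells also differed between MAT and AGED females, with none called. The 4 B cell genes were all below 0 (median -0.52), as were the 6 T cell genes (median -0.19) and 4 of 5 nerve genes (median -0.54). The 4 mesothelial genes were all above 0 (median 0.63), as were 5 of 6 macrophage genes (median 0.56). Every AGED female array had a lower share of probes well above background (59.9% to 63.2%) than every MAT female array (64.6% to 68.2%). In males, the 4 B cell and the 6 T cell genes were all above 0 (medians 0.43 and 0.63), as were 4 of 6 macrophage genes (median 0.37). The 3 skeletal muscle genes were all below 0 in males (median -0.85), as were 4 of 5 nerve genes (median -0.28). The share of probes well above background was 52.3% to 61.2% on AGED male arrays and 60.4% to 65.9% on MAT male arrays. The part of these in the values of the members was not tested.

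Variation between mice of the same group was wide for some members and narrow for others. The SD between arrays within groups was 2.20 for Adipoq, 2.12 for Cfd, 2.01 for Cidec, 1.76 for Pck1, 1.61 for Ucp1, 1.58 for Retn, 1.55 for Plin1 and 1.12 for Gpd1. The median over all genes tested was 0.302 and the 90th percentile 0.651, which 10 of the 33 members exceeded. Another 10 members were below the median of all genes, among them Me1 (0.150), Cebpa (0.185) and Pparg (0.194). The median over the 33 was 0.405. Within single groups, the SD of Ucp1 was 3.16 in MAT females, 0.42 in MAT males, 0.19 in AGED males and 0.47 in AGED females. Adipoq, Cidec, Plin1, Gpd1, Pck1 and Ucp1 were not well above background on some male arrays. Their SDs thus rest in part on dim readings.

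**Figure D3:**
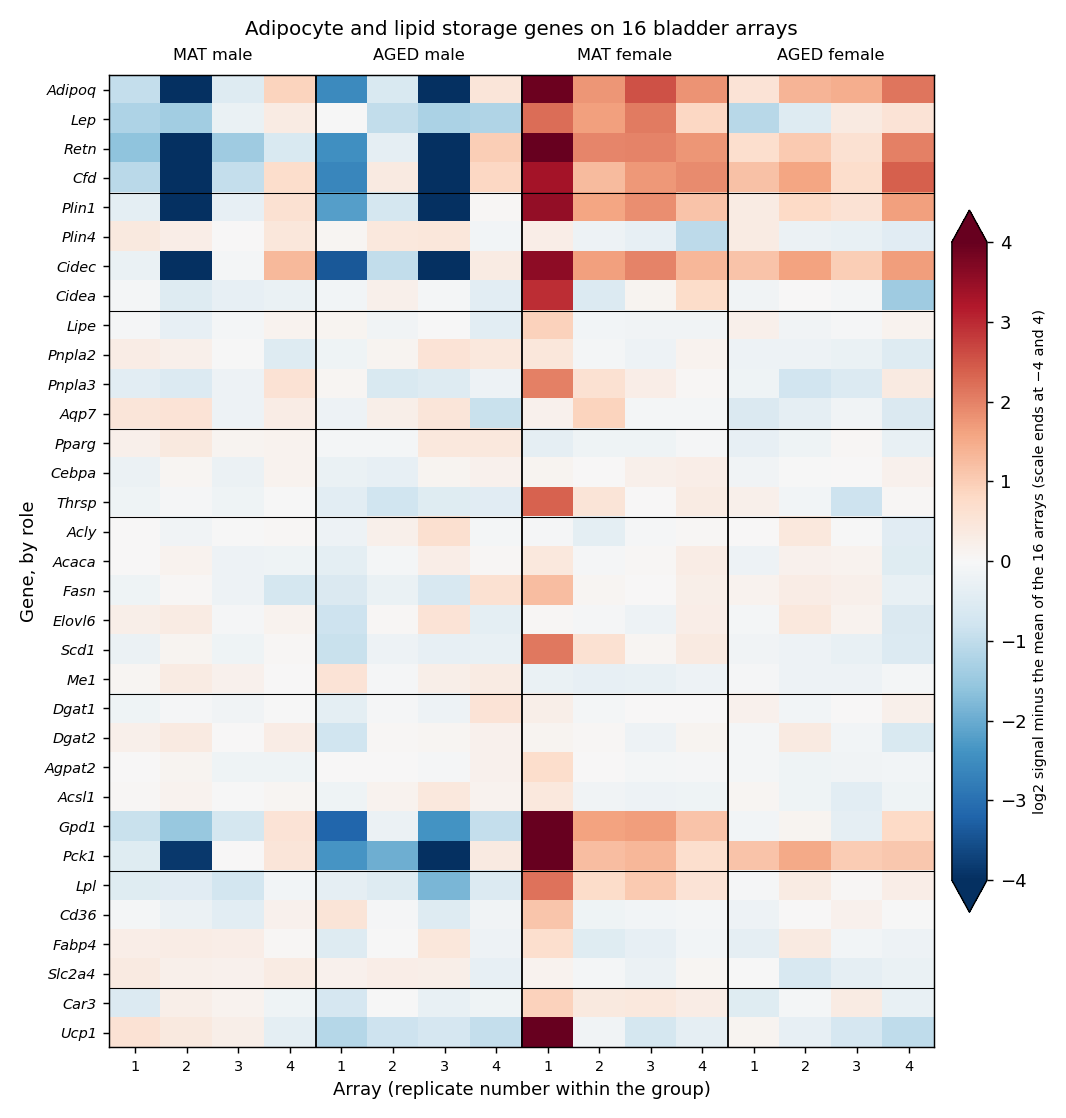
Log2 signal of the 33 genes (rows, grouped by role) on the 16 arrays (columns, grouped by age and sex), as the deviation from each gene's mean over the 16 arrays; red is higher, blue is lower, and colours end at -4 and 4. MAT male replicate 2 and AGED male replicate 3 are blue for Adipoq, Retn, Cfd, Plin1, Cidec and Pck1, MAT female replicate 1 is red for genes such as Ucp1, Gpd1 and Pck1, and rows such as Pparg, Cebpa and Me1 are pale.

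Some arrays stood apart for part of the members. MAT male replicate 2 was the lowest array of its group in 12 members and AGED male replicate 3 in 11, which were no more than on MAT male replicate 3 (12) and AGED male replicate 1 (12), and MAT male replicate 2 was the highest in 12 others. The arrays differed in the size of the gap. On both, the gap to the next array was over 2-fold for Adipoq, Retn, Cfd, Plin1, Cidec and Pck1, while Pparg, Cebpa and Thrsp were not lowest on either. Over all genes, 27.8% were lowest on MAT male replicate 2 and 2.45% by over 2-fold, and 22.6% and 2.57% on AGED male replicate 3. Of the marker lists of other cells, the 4 B cell genes were lowest on these arrays as well, 3 of them by over 2-fold on MAT male replicate 2 and 2 on AGED male replicate 3. Also lowest were 4 of 5 nerve genes on MAT male replicate 2, and 4 of 6 T cell, 3 of 4 endothelial and 3 of 6 macrophage genes on AGED male replicate 3, none by over 2-fold. The mean log2 signal of the B cell genes ranged from -5.25 to -1.43 in MAT males and from -3.90 to -1.73 in AGED males. None of the 6 smooth muscle and 6 urothelial genes was lowest by over 2-fold on either array. The part of these signals in the values of the fat genes was not tested.

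MAT female replicate 1 was the highest array of its group in 27 of 33 members, where 20.5% of all genes were highest on it. The gap to the next array was over 2-fold for 16 members, against 0.490% of all genes. Along with Ucp1 and Cidea, other brown fat genes were high on this array. Of 5 such genes tested, 4 were highest on it and 2 by over 2-fold. Cox7a1, a subunit of cytochrome oxidase in muscle and brown fat, was 2.21 on it and between 0.53 and 0.99 on the other MAT female arrays. Cox8b, another such subunit, named here after its values were seen, was 2.93 on it and between -2.21 and -1.96 on the others. The mean of the 5 brown fat genes was 0.34 on this array, and at most -0.69 on any male or AGED female array. Of the 6 urothelial, 6 macrophage and 6 T cell genes, 0 were highest on it, while 5 of 6 smooth muscle and 3 of 4 endothelial genes were, none by over 2-fold. The part of brown fat genes in the other members' values was not tested.

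The variation within groups was then compared with that of Adipoq, by a limma model with a mean for each group and the log2 signal of Adipoq as a covariate. Of the 32 other members, 5 varied with Adipoq at an adjusted p under 0.05, and all of these slopes were positive, while 0.224% of all genes had a positive and 0.0747% a negative slope at that threshold. Per log2 unit of Adipoq, Cidec varied by 0.90 (SE 0.04, adjusted p = 2.18e-07), Plin1 by 0.70 (SE 0.04, adjusted p = 2.18e-07) and Cfd by 0.94 (SE 0.06, adjusted p = 1.33e-06). Retn varied by 0.68 (SE 0.06, adjusted p = 0.000125) and Pck1 by 0.72 (SE 0.09, adjusted p = 0.00417). The slopes of Gpd1 (0.33, adjusted p = 0.219), Lpl (0.14, adjusted p = 0.313) and Lep (0.15, adjusted p = 0.479) did not pass. The median slope of the 32 members was 0.03, and the slope of Pparg was -0.04 (SE 0.03), that of Fabp4 -0.02 and that of Plin4 -0.01. In the plots against Adipoq, the genes that passed lie along the fitted line and Pparg lies along the horizontal.

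**Figure D4:**
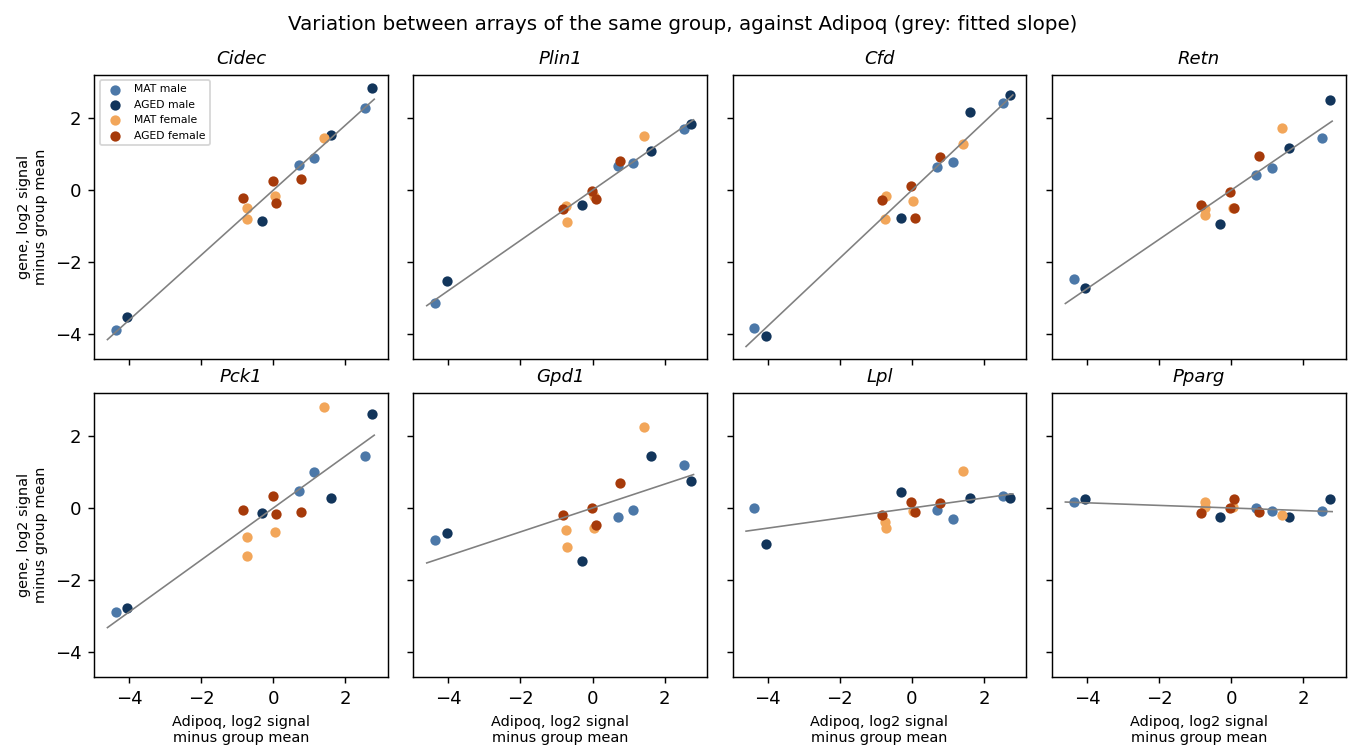
Deviation from the group mean of 8 genes (vertical) against that of Adipoq (horizontal), in log2 units, 1 point per array and coloured by group; the grey line is the fitted slope. Cidec, Plin1, Cfd, Retn and Pck1 follow Adipoq with slopes between 0.68 and 0.94, and Pparg has a slope of -0.04; the leftmost points are MAT male replicate 2 and AGED male replicate 3.

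Most of the variation lay in the male arrays, whose Adipoq signals spanned 6.90 log2 units at 12 months and 6.77 at 27 to 30 months, against 2.15 and 1.60 in females. Adipoq, Plin1, Cidec and Pck1 were not well above background on every male array, so part of this variation lay in dim readings. Within males, all 5 genes passed, with slopes between 0.66 and 0.96. Within females, 0 of the 5 passed, with slopes between 0.77 and 1.24 and adjusted p between 0.237 and 0.999. Without MAT male replicate 2 and AGED male replicate 3, the arrays farthest from their group means of Adipoq, 4 of the 5 passed, and Pck1 had a slope of 0.94 with an adjusted p of 0.397. Outside the 33, the 5 genes with the smallest p for a positive slope were Slc7a10 (0.62, SE 0.05), an amino acid transporter, Slc31a2 (0.29, SE 0.03), a copper transporter, Fam163a, Epyc and Dhrs2. Of 17 further fat cell genes 1 passed, Acvr1c (0.50, SE 0.07, adjusted p = 0.00908), a receptor of the activin family, named after its values were seen. No gene passed in the lists of lipid storage, lipid synthesis, fatty acid oxidation, brown fat, fat precursors, macrophages, T cells, B cells, smooth muscle, urothelium, endothelium, nerve, skeletal muscle or mesothelium.

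The promoters of Adipoq and of the 5 members that varied with it are given to show their sequence, 250 bases before to 50 after the start of transcription in RefSeq (GRCm38.p6). They were searched on both strands for TTGCNNAA, a form of the site bound by C/EBP factors, whose matches are in capitals, for the PPAR response element, the repeat bound by PPARG with its partner, and for TATAAA. The table held 31 promoters of 24 members, of which 4 promoters held TTGCNNAA (1 each of Plin1, Cidec, Lep and Pparg), where 10.8% of all 32851 promoters did. The PPAR element was in 0 of the 31 and in 0.801% of all promoters, and TATAAA in 2 of the 31 (Cebpa and Pparg) and in 13.6% of all. Plin1 held 2 matches and Cidec 1, in the promoter printed here and not in that of its other start. A match is a description of the letters in this window.
Adipoq, chr16:23146286-23146585, plus strand: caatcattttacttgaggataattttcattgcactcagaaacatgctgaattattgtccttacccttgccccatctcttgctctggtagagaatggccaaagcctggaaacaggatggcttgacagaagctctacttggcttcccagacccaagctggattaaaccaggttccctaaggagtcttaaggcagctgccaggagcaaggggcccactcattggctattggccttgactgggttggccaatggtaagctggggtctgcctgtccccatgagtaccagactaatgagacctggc
Plin1, chr7:79732727-79733026, minus strand: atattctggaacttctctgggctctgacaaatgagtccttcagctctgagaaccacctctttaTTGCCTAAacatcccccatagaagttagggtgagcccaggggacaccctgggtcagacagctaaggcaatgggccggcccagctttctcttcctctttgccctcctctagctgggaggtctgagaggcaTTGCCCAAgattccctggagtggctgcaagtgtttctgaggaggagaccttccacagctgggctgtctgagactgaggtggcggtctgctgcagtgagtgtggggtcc
Cidec, chr6:113434715-113435014, minus strand: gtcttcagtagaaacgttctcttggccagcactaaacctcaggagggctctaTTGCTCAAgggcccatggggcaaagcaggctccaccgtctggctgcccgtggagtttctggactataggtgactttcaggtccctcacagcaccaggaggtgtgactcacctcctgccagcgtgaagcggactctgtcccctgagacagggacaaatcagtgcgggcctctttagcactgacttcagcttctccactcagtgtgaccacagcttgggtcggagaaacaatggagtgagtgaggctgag
Cfd, chr10:79890603-79890902, plus strand: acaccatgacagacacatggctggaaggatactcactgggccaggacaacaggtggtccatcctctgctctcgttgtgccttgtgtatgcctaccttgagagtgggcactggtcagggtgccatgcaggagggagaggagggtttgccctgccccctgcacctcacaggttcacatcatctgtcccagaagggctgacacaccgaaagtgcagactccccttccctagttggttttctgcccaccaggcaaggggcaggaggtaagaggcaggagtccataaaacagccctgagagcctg
Retn, chr8:3655520-3655819, plus strand: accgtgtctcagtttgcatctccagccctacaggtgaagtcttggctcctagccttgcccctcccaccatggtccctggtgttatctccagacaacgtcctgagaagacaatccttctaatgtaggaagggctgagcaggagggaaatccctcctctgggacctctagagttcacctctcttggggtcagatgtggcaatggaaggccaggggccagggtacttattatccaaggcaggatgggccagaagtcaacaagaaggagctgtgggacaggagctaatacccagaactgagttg
Pck1, chr2:173152823-173153122, plus strand: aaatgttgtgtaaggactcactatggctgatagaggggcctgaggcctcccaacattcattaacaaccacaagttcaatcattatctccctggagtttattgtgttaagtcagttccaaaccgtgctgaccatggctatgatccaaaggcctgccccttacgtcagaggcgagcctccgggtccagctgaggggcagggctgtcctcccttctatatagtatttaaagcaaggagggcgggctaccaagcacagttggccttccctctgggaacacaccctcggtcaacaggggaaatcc

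Male and female arrays were compared at each age with the same model. No member was called at 12 months or at 27 to 30 months, where 0.164% and 3.11% of all genes passed, and the lowest adjusted p beside Lep were 0.0669 (Lpl) and 0.0554 (Me1). At 12 months, 10 of the 32 members other than Lep were lower on every male than on every female array (Adipoq, Retn, Cfd, Plin1, Cidec, Thrsp, Gpd1, Pck1, Lpl and Car3), where 4.42% of all genes were. At 27 to 30 months, 5 were (Adipoq, Plin1, Cidec, Pck1 and Lpl), where 4.77% of all genes were, and 8 were without AGED female replicate 3. With an array left out, groups fail to overlap more readily, and the share of all genes is not given for the count of 8. Higher on every male array were Pparg, Me1 (by its tested probe) and Slc2a4 at 12 months (14.0% of all genes) and Pnpla2 and Agpat2 at 27 to 30 months (8.94% of all genes).

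Adipoq, Retn, Cfd, Plin1 and Cidec were lower in males at both ages by their means, and none passed the adjustment. Adipoq differed by -4.15 (male minus female) at 12 months (SE 1.41, adjusted p = 0.205) and by -3.62 at 27 to 30 months (adjusted p = 0.118). Retn differed by -4.51 (SE 1.01, adjusted p = 0.0735) and by -2.60 (adjusted p = 0.118), and at 27 to 30 months its groups overlapped. Cfd differed by -3.77 and -3.28. The lowest female Adipoq array was at 0.55 and the highest male array at 0.89, and within each age the groups did not overlap. Not all fat cell genes were lower in males. Plin4 was between 4.77 and 5.18 in MAT males and between 3.68 and 4.99 in MAT females, and of 17 further fat cell genes 8 were higher and 9 lower in males at 12 months. At 27 to 30 months, 6 of the 17 were higher and 11 lower. Of all genes, 38.7% were lower in males at 12 months and 40.7% at 27 to 30 months. Of 13 further lipid storage genes, 9 were higher and 4 lower at 12 months. At 27 to 30 months 3 were higher and 10 lower, 1 of these called.

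Plin1 differed by -3.11 at 12 months and -2.62 at 27 to 30 months, Cidec by -3.11 and -3.88, and Pck1 by -2.97 and -3.42, with SEs of 1.00, 1.29 and 1.12. Plin1 and Pck1 were well above background on 3 MAT and 2 AGED male arrays, and Cidec and Gpd1 on 4 and 3. The sizes given for these genes thus rest in part on dim readings. Gpd1 differed by -2.86 (SE 0.72, adjusted p = 0.107) and -1.79, and Lpl by -1.58 (SE 0.34, adjusted p = 0.0669) and -0.95. Lep, again with no test, was at least 2.36-fold lower in males at 12 months, and at 27 to 30 months no array of either sex was well above background for it. Me1 was higher in males by 0.43 (SE 0.12) and 0.40 by its tested probe, and Pparg by 0.39 (SE 0.15) and 0.37. The other probes of Me1 differed by 0.002 and -0.26 and by 0.41 and 0.11, so its direction at 27 to 30 months depended on the probe. Over all genes the median differences were 0.08 and 0.09. Without MAT male replicate 2, the differences at 12 months were -2.70 for Adipoq, -2.49 for Cfd, -2.06 for Plin1 and -1.81 for Cidec, and without AGED male replicate 3, those at 27 to 30 months were -2.27 for Adipoq, -1.69 for Retn, -1.93 for Cfd and -0.62 for Lpl. Leaving out 1 array gave up to 3 called members beside Lep. At 12 months these were Retn and Lpl without AGED male replicate 3 and Lpl without AGED male replicate 1. At 27 to 30 months they were Plin1, Cidec and Pck1 without MAT male replicate 2 or Retn, Cidec and Pck1 without AGED male replicate 4. In the same order, 95, 116, 853 and 826 of all genes were called in these fits.

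Markers of other cells differed between the sexes as well, with none called. At 12 months the 4 B cell genes (median -2.38) and the 6 T cell genes (median -1.28) were all lower in males, and the 4 mesothelial genes (median 1.32) and 6 urothelial genes (median 0.30) all higher. At 27 to 30 months the 4 B cell genes were again all lower (median -1.36), and 3 of 6 T cell genes were. The 4 mesothelial genes were all higher (median 0.31), as were 5 of 6 urothelial (median 0.10) and 4 of 5 nerve genes (median 0.32). Of 6 macrophage genes, 4 were lower (median -0.24). The lowest adjusted p by limma was 0.0084 among the urothelial, 0.013 among the nerve and 0.046 among the macrophage genes. In each case the change was under 2-fold. The part of these in the differences of the members was not tested.

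**Figure D5:**
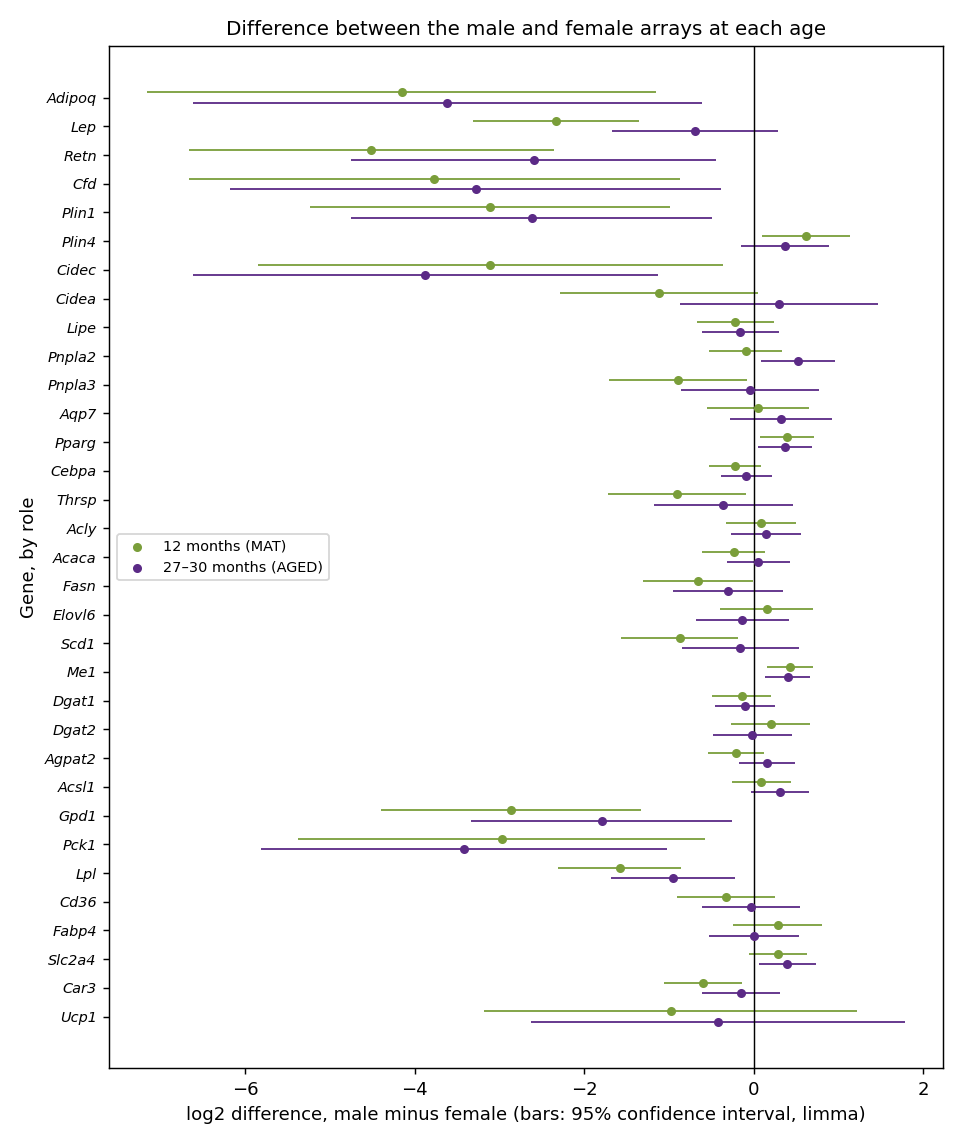
Log2 difference of male minus female arrays for each of the 33 genes at 12 months (green) and at 27–30 months (purple); points are limma estimates from 4 against 4 arrays and bars their 95% confidence intervals. Adipoq, Retn, Cfd, Plin1, Cidec, Gpd1, Pck1 and Lpl lie below 0 at both ages and Me1 (tested probe) and Pparg lie above 0; sex and slide cannot be told apart.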

How the data were processed

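RNA of 16 mouse bladders was measured on 1-colour Agilent arrays. The authors deposited the spot intensity of each array as Feature Extraction wrote it (version 9.1 in the submitters' processing notes, 10.7.3.1 in the file headers), background-subtracted and not normalized between arrays. A second deposited table held log2 values that matched the scaled scanner values, with probes centred, and served as an alternative.

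Processed signals were taken as log2 minus the 75th percentile of each array, without control spots and outlier spots (399 probe values), and no spot was saturated. Probes were named through RefSeq accessions (26582 of 55681) and kept if 4 or more arrays read them well above background (36972 probes, 26781 genes). The kept probe with the highest mean represented a gene. Of the 33 members, 7 had more than 1 probe.

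Groups were taken from the labels and compared with limma 3.58.1 (R 4.3.3) in 1 model of 16 arrays (12 residual degrees of freedom), with Benjamini-Hochberg adjustment over all genes and a call at an adjusted p under 0.05 and a 2-fold change. The difference of age changes and the slope on Adipoq had no fold limit. Exact permutation tests were two-sided. A bound (at least N-fold) sets the brighter mean against a floor for the dim group, the mean over its arrays of the probe's signal or, where brighter, the dimmest signal that was well above background. The procedure was checked on simulated arrays. Named were all members, genes called for age and up to 2 of the brightest of other lists, and the 5 genes with the smallest p for a positive slope. The members, lists and tests were chosen with earlier results of these data known. The alternatives covered scaling, background, filters, probes, tests, weights, blocks and left-out arrays. Arrays cannot separate age from slide row or sex from slide, and the p-values measure the spread between these samples.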

Additional observations from a re-analysis of the deposited data

Results flagged for a closer look

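In 12 of 132 groups of 4 arrays (33 genes in 4 groups, 9.09%), 1 array lay far from the others, with a gap to its nearest neighbour over the group's range above Dixon's 95% critical value. Chance marks about 1 in 20 groups, and the genes are not independent of each other. MAT female replicate 1 accounted for 8 of these, each as the highest array. The ratio was 0.959 for Lipe, 0.92 for Cd36, 0.915 for Ucp1, 0.914 for Retn, 0.91 for Acsl1, 0.883 for Agpat2, 0.842 for Pck1 and 0.84 for Gpd1. On this array Cd36 was 1.33 against 0.03 to 0.13 on the other MAT female arrays, and Lipe was -2.09 against -3.15 to -3.11.

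The remaining 4 were low values on 4 different arrays. Cidea was -1.36 on AGED female replicate 4 against -0.09 to 0.06 on the others (ratio 0.896), Lpl was 0.17 on AGED male replicate 3 against 1.46 to 1.62 (ratio 0.884), Dgat2 was 4.42 on AGED male replicate 1 against 5.26 to 5.39 (ratio 0.86), and Thrsp was -0.43 on AGED male replicate 2 against -0.10 to -0.04 (ratio 0.85). The cause was not tested.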

How the results depend on the processing

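Of 155 alternatives for the counts of called members and their medians, 142 left the result as it was, and of 941 for single members, 904 did. A median counted as unchanged if it moved by less than 0.454, the SD between arrays of the mean over members. Every median was smaller than this in size, so the label could not show a median falling to 0. A single member counted as unchanged if its sign and its call were kept, and no member was called for age or sex. At 12 months, males against females gave 1 called member with quantile normalization (Lep), 1 with a filter on all arrays of a group (Lep), 8 with array weights, 9 at an unadjusted p and 7 with the methods' t-test, unadjusted. At 27 to 30 months the count was 4 with normexp (Adipoq, Retn, Cidec and Gpd1), 7 at an unadjusted p and 4 with the t-test. The age change in females gave 1 with array weights (Lep, adjusted p = 0.0164), 5 at an unadjusted p and 2 with the t-test, and that in males 1 with the t-test. The share of all genes under each rule is not set beside these counts. They show how the rules change the calls and are no result about the members. The slope on Adipoq passed for 0 members in females alone.

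Signs turned for some values. In males these were Acaca (-0.051) with the array median, Cfd (0.086), Pparg (0.14), Plin4 (0.13) and Me1 (-0.089) with normexp, Me1 (-0.11) with the mean of probes, and Cfd (0.16) and Plin4 (0.036) with array weights. In females they were Pparg with normexp (0.0011) and array weights (0.018), and Acaca (0.047) with the mean of probes. Lep was not well above background on any male or AGED female array, so its fitted values there have no order. Its sign turned with normexp (0.039 for age in males, 0.22 for sex at 27 to 30 months) and with a floor (0.41 and 0.21). Normexp moved the median of all genes to 0.11 for age in males and 0.244 for sex at 27 to 30 months. The cause was not tested.

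Beside Lep, leaving out 1 array gave 0 to 1 called members for age in males and 5 for the slope. For sex it gave 0 to 2 at 12 months and 0 to 3 at 27 to 30 months. Among all genes, 185 were called where 1 member was for age in males. For sex, 95 were where 2 members were at 12 months, and 853 or 826 where 3 were at 27 to 30 months. The count over all genes is not given for the slope. Changes in males ranged for Adipoq from -2.04 to 0.76, Retn from -0.31 to 1.43, Cfd from -1.38 to 1.24, Lep (not measured there) from -0.53 to 0.088, Plin1 from -1.75 to 0.13, Pparg from -0.12 to 0.053, Plin4 from -0.16 to 0.032 and Acaca from -0.091 to 0.13. In females they ranged for Pck1 from -1.28 to 0.10, Pparg from -0.092 to 0.039, Plin4 from -0.066 to 0.37 and Fabp4 from -0.16 to 0.23.

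Among all genes, the calls for age were 228 in males and 51 in females, 552 and 18 without a filter, 722 and 39 with normexp, 11 and 99 with each sex fitted alone, 250 and 197 with array weights, and 0 and 1 by the t-test after Benjamini-Hochberg adjustment. The replicate numbers did not pair the samples (correlations from -0.147 to 0.068), and with the replicate block 0 members were called in either sex, with 184 and 3 among all genes. With 4 arrays a group, the smallest exact p is 0.0286, and calls of Lep carry no support, since it passed the filter through MAT females alone.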
